A study of Arabidopsis thaliana with 4 samples.

Results

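The genes described here are the neighbours of *FLC* (AT5G10140), the gene of a MADS-box protein that represses flowering, on chromosome 5 of *Arabidopsis thaliana*. They were defined by position, as the loci numbered from AT5G09600 to AT5G10700 without *FLC* itself, and number 131 of the 33854 genes listed. The choice was made with earlier results of these data known. A mean of at least 0.5 FPKM (fragments counted on a transcript, divided by its length in kilobases and scaled by the sequencing depth) over the 4 libraries was reached by 98 of them, which are called the tested genes. A further 15 were above 0 in some library but under that mean, the highest at 0.414 FPKM, and 18 were listed at 0 in all 4 libraries, among them 8 protein-coding and 6 tRNA genes. Of the 131, 128 were found in the TAIR10.1 annotation. The tested genes reach 192 kb beyond the 3′ end of *FLC* and 199 kb beyond its 5′ end, with 46 on the 3′ side, where the locus numbers are lower, and 52 on the 5′ side.

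Poly-A RNA was sequenced from 12-day-old *35S-COLDAIR* seedlings and from Col-0 seedlings, the wild type, with 2 libraries of each genotype, called replicates 1 and 2. All plants had the Col-0 background and grew on Murashige and Skoog medium at 22 °C under long days of 16 h light and 8 h dark. The *35S-COLDAIR* plants carry the *COLDAIR* sequence, taken from the first intron of *FLC*, behind the constitutive *CaMV 35S* promoter, and the paper names a single representative late-flowering line, *35S-COLDAIR #3*, for the RNA-seq comparison. The labels do not say whether the libraries of a genotype came from separate cultures, so all p-values measure only the spread between these libraries. The comparison of *35S-COLDAIR* with Col-0 seedlings asks how the genes beside *FLC* compare when its intronic RNA is also transcribed from a transgene.

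*FLC* shuts off flowering by binding CArG boxes, short A/T-rich sites bracketed by C and G bases, in genes that start the floral transition. Its own activity is set by chromatin: Polycomb proteins place a repressive histone mark across the gene, and active genes carry other marks. *COLDAIR* is a noncoding RNA transcribed from inside *FLC*, which makes the genes on either side of interest, since chromatin marks and transcription can spread along a chromosome. The neighbours have no common function and include genes of chromatin, metabolism, cell walls and peptide signals.

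The 250 bases upstream of the annotated start are shown for both neighbours that flank *FLC* and for 3 genes whose upstream sequence holds a CArG box. The box was searched as CC, then 6 bases of A or T, then GG, a pattern that reads the same way on both strands. AT5G10130 lies 680 bp from the 3′ end of *FLC* and AT5G10150 lies 2489 bp from its 5′ end, and neither window holds the box. *MEF7* (AT5G09950) and AT5G09960 are transcribed away from each other, and their windows overlap and share 1 box. *GRF6* (AT5G10450), which encodes a 14-3-3 protein, has a box of its own. The sequences are those of the RefSeq TAIR10.1 assembly, written 5′ to 3′ on the strand of each gene, with the CArG box in capitals. The positions in the same order are chr5:3172702-3172951 (minus strand), chr5:3184111-3184360 (minus strand), chr5:3105951-3106200 (minus strand), chr5:3106052-3106301 (plus strand) and chr5:3286538-3286787 (minus strand).
AT5G10130: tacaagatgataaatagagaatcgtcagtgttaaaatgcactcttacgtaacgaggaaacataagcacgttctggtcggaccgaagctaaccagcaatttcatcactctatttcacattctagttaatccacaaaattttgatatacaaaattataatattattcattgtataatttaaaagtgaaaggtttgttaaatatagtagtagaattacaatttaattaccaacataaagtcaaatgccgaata
AT5G10150: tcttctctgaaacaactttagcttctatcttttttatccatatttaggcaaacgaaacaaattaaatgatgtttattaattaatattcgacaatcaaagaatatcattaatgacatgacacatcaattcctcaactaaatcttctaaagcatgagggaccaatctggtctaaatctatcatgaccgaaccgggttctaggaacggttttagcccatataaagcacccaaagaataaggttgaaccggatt
MEF7: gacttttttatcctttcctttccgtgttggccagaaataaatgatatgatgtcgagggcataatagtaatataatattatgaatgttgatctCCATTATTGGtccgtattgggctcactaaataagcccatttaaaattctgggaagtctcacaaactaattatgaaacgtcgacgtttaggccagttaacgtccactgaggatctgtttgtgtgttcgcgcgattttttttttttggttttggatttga
AT5G09960: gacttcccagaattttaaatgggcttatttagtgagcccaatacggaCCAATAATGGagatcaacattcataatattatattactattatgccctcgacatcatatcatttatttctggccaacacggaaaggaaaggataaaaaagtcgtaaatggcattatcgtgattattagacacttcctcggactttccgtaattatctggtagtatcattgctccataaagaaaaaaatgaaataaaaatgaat
GRF6: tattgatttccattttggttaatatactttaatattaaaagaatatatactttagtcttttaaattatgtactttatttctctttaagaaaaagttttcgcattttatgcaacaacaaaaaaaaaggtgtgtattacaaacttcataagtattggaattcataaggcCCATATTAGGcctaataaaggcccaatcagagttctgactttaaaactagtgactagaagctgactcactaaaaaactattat

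The box was found upstream of 5 of 117 protein-coding neighbours (4.27%) and of 692 of 27443 protein-coding genes in all (2.52%), the remaining neighbours with a box being *RING1* (AT5G10380) and AT5G10605. Among tested genes the shares were 5 of 96 neighbours (5.21%) and 528 of 19589 genes (2.70%). The box shared by *MEF7* and AT5G09960 is counted for both genes, and that of AT5G10605 lies inside the annotated gene AT5G10610 on the opposite strand. A match describes these letters only. The 5 genes were picked out by the box and not by their values. *MEF7* had 0.527 and 0.637 FPKM in *35S-COLDAIR* seedlings, against 0.755 and 0.689 FPKM in Col-0 seedlings, which is a log2 fold change of −0.12 (SE 0.163). Among the other 4, the log2 fold changes were −0.12 for AT5G09960, −0.05 for *RING1*, −0.04 for *GRF6* and 0.98 for AT5G10605, whose 4 values are given further on.

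The 4 libraries summed to between 928299 and 951940 FPKM and held 22411 to 22623 genes above 0. The tables hold no fragment numbers. The commonest ratio between low values (under 0.3 FPKM in both libraries) would make the *35S-COLDAIR* libraries 1.09 times (replicate 1) and 1.13 times (replicate 2) as deep as the Col-0 library of that number, but only 68 of 1046 and 137 of 1110 low genes stood within 0.0015 of it on the log2 scale. *FLC* (chr5:3173382-3179448, minus strand) had 43.4 and 37.6 FPKM in *35S-COLDAIR* seedlings, against 2.05 and 1.13 FPKM in Col-0 seedlings, a log2 fold change of 4.02 (SE 0.206) whose adjusted p was 0.0835 in limma with Benjamini-Hochberg adjustment over 20142 genes. Green-tissue genes fixed as markers (*RBCS1A*, *CAB1* and *RCA*) summed to 43763 and 41169 FPKM in *35S-COLDAIR* seedlings, against 44122 and 39682 FPKM in Col-0 seedlings. The sums ranged from 20.1 to 32.6 FPKM for 3 root genes, from 0.612 to 1.53 FPKM for 3 flower organ genes and from 0.149 to 0.683 FPKM for 2 pollen genes over the 4 libraries. Seed storage genes summed to 11.1 and 8.77 FPKM in *35S-COLDAIR* seedlings, against 24.0 and 5.71 FPKM in Col-0 seedlings. In whole seedlings, fewer cells of a type and less RNA per cell cannot be told apart.

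None of the tested neighbours passed the test: 0 of 98 had an adjusted p under 0.05 in limma, beside 2 of 20142 genes in all (0.00993%). *FLC* itself did not pass in this fit, with an adjusted limma p of 0.0835 at a log2 fold change of 4.02, so smaller changes could easily be missed. An unadjusted p under 0.05 was reached by 4 of 98 neighbours (4.08%), against 2.59% of all tested genes. Both *35S-COLDAIR* libraries lay above both Col-0 libraries in 18 of 98 neighbours (18.4%), against 14.8% of all tested genes. Both lay below in a further 18 (18.4%), against 14.3% of all tested genes. The smallest two-sided p that an exact permutation of 4 libraries in groups of 2 can reach is 0.333.

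The differences were small. The median log2 fold change of the 98 neighbours was 0.02, with a range of −0.73 to 0.98, and the median over all 20142 tested genes was 0.00. Without regard to sign, the median difference was 0.10 on the log2 scale for the neighbours and 0.09 for all tested genes, and 95% of the values lay under 0.42 for the neighbours and under 0.38 for all tested genes. A difference of more than 0.5 was found in 4 neighbours (4.08%), against 2.43% of all tested genes, and a difference of more than 1 in 0 neighbours, against 0.586% of all tested genes. The log2 fold change was above 0 in 54 of 98 neighbours (55.1%), against 50.6% of all tested genes. The log2 ratios taken within replicate 1 and within replicate 2 had the same sign in 53 of 98 neighbours (54.1%), against 55.2% of all tested genes. The median SE of a neighbour's log2 fold change was 0.13, and a p above the threshold does not show that a gene had the same level in both genotypes.

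**Figure D1:**
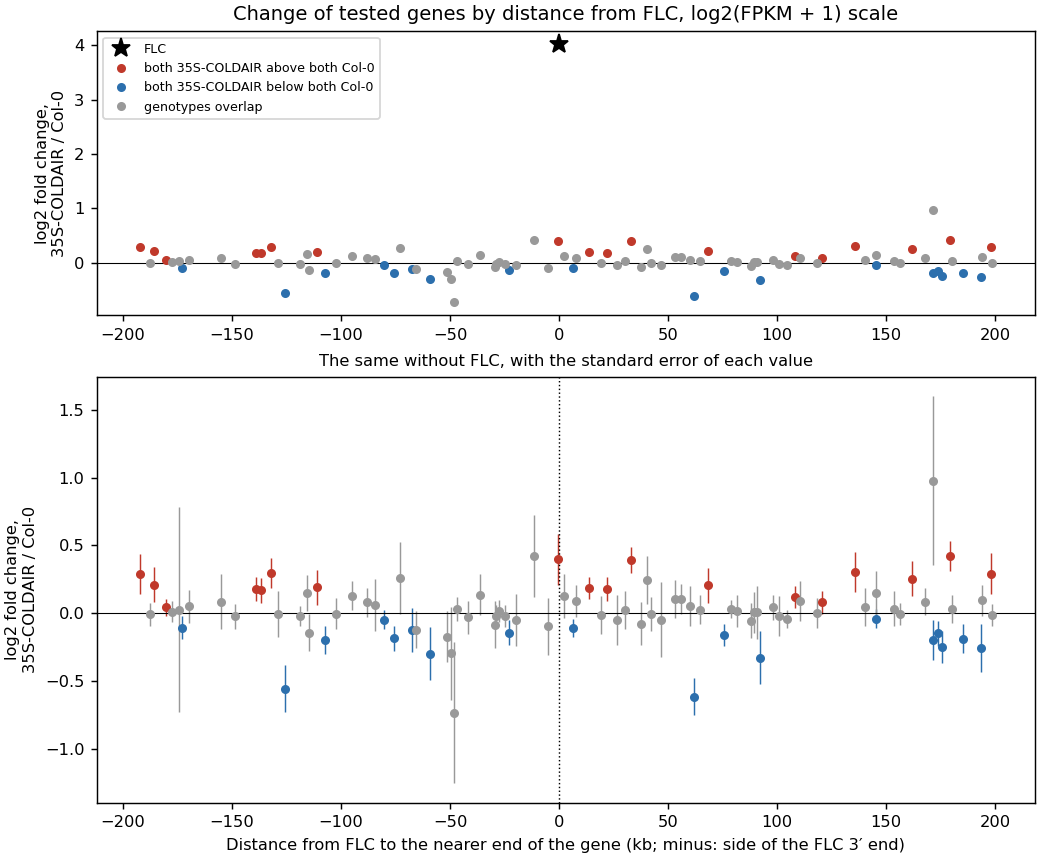
Log2 fold change of *35S-COLDAIR* over Col-0 seedlings on the log2(FPKM + 1) scale, against the distance in kb from *FLC* to the nearer end of each gene, for the 97 tested neighbours with a position, with *FLC* in the upper panel and bars of 1 SE in the lower panel. *FLC* stands at 4.02 while the neighbours lie between −0.73 and 0.98. The 18 genes higher in both *35S-COLDAIR* libraries (red) and the 18 lower in both (blue) lie on both sides of *FLC*. Over all tested genes, 14.8% were of the first kind and 14.3% of the second. No red point lies among places 6 to 20 on the 3′ side, a zone of 15 genes picked out by its low median.

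AT5G10130 (chr5:3171266-3172701, minus strand), annotated as a protein of the pollen Ole e 1 allergen and extensin family, is the nearest neighbour on the 3′ side. It had 13.2 and 13.0 FPKM in *35S-COLDAIR* seedlings, against 8.03 and 11.7 FPKM in Col-0 seedlings. Both *35S-COLDAIR* libraries were above both Col-0 libraries, by a log2 fold change of 0.40 (SE 0.186), which was 0.65 within replicate 1 and 0.14 within replicate 2. The lower Col-0 library of replicate 1 therefore carried most of the difference. Its unadjusted p was 0.0920 in limma and its adjusted p 0.9998.

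AT5G10150 (chr5:3181938-3184110, minus strand) is annotated as the UPSTREAM OF FLC protein, with a domain of unknown function, and is the nearest neighbour on the 5′ side. It had 18.5 and 22.3 FPKM in *35S-COLDAIR* seedlings, against 16.3 and 21.0 FPKM in Col-0 seedlings. The genotypes overlapped, with replicate 2 above replicate 1 in each of them, and the log2 fold change was 0.13 (SE 0.163). AT5G10120, annotated as a gene of the EIN3 family of ethylene-response factors, lies on the 3′ side beyond AT5G10130 and was under the filter, with 0.0729 and 0.0665 FPKM in *35S-COLDAIR* seedlings, against 0.158 and 0.113 FPKM in Col-0 seedlings.

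Farther out on the 3′ side, AT5G10110 had 10.2 and 7.04 FPKM in *35S-COLDAIR* seedlings, against 10.2 and 8.17 FPKM in Col-0 seedlings. *TPPI* (AT5G10100), a trehalose-6-phosphate phosphatase gene, had 6.22 and 3.38 FPKM in *35S-COLDAIR* seedlings, against 3.88 and 2.61 FPKM in Col-0 seedlings. The genotypes overlapped for both genes, and although the log2 fold change of *TPPI* was 0.42 (SE 0.303), its *35S-COLDAIR* library of replicate 2 was below the Col-0 library of replicate 1. The aspartyl protease gene AT5G10080 had 5.90 and 4.53 FPKM in *35S-COLDAIR* seedlings, against 4.63 and 6.23 FPKM in Col-0 seedlings. AT5G10070 had 15.3 and 16.8 FPKM in *35S-COLDAIR* seedlings, against 18.2 and 17.3 FPKM in Col-0 seedlings, so that its Col-0 libraries were the higher ones, with a log2 fold change of −0.14 (SE 0.0943).

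On the 5′ side, AT5G10160, annotated as a thioesterase gene, had 60.8 and 59.1 FPKM in *35S-COLDAIR* seedlings, against 64.3 and 65.0 FPKM in Col-0 seedlings. Its *35S-COLDAIR* libraries were both lower, by a log2 fold change of −0.11 (SE 0.0688). It overlaps *MIPS3* (AT5G10170) on the opposite strand, a gene of inositol phosphate synthesis, which had 17.4 and 14.4 FPKM in *35S-COLDAIR* seedlings, against 14.8 and 14.9 FPKM in Col-0 seedlings. *SULTR2;1* (AT5G10180), a sulfate transporter gene of vascular tissue, had 104 and 96.8 FPKM in *35S-COLDAIR* seedlings, against 84.6 and 91.6 FPKM in Col-0 seedlings. Both *35S-COLDAIR* libraries were above both Col-0 libraries for *SULTR2;1*, with a log2 fold change of 0.19 (SE 0.0830), which was 0.30 within replicate 1 and 0.08 within replicate 2. AT5G10190, a gene of the major facilitator superfamily of transporters, had 8.05 and 10.2 FPKM in *35S-COLDAIR* seedlings, against 9.12 and 9.26 FPKM in Col-0 seedlings, and its Col-0 libraries fell between those of *35S-COLDAIR*.

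**Figure D2:**
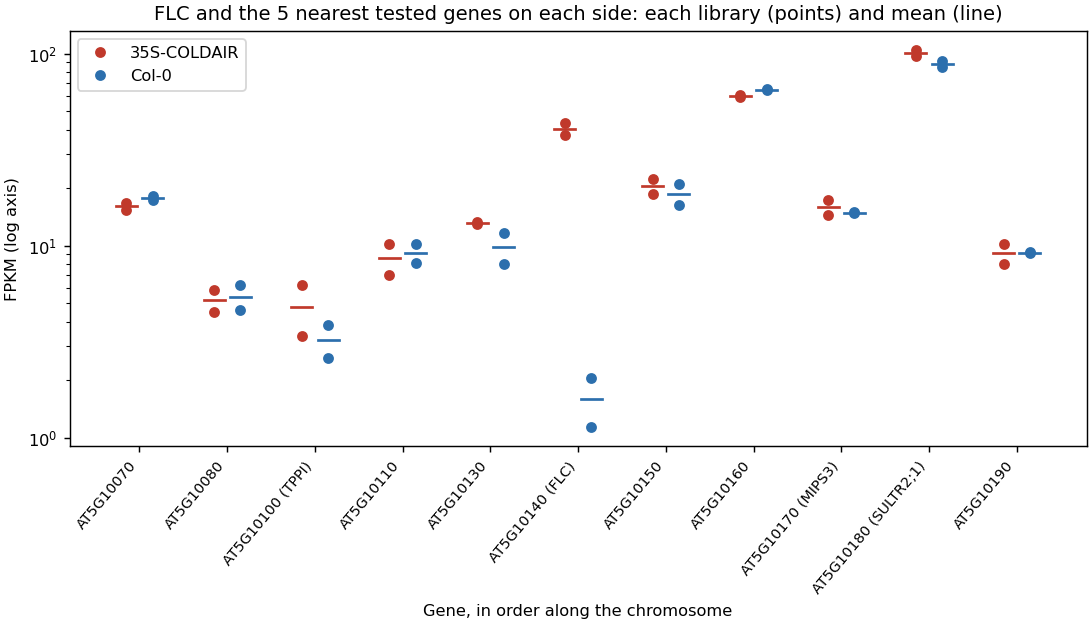
Level in each library (points) and mean of the 2 libraries (line) on a log axis of FPKM, for *FLC* and the 5 nearest tested genes on each side in order along the chromosome, *35S-COLDAIR* in red and Col-0 in blue. The genotypes stand far apart at *FLC* (43.4 and 37.6 FPKM against 2.05 and 1.13 FPKM) and lie close together or overlap at all 10 neighbours, among which *TPPI* has the largest log2 fold change, 0.42.

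By order from *FLC*, the median log2 fold change of the 5 nearest tested genes on each side was 0.04 (n = 10 genes), from 0.20 within replicate 1 and 0.02 within replicate 2. It was −0.05 on the 3′ side and 0.09 on the 5′ side. The 30 genes at places 6 to 20 had a median of −0.02 and the 58 farther genes a median of 0.03. Both *35S-COLDAIR* libraries were above both Col-0 libraries in 2, 3 and 13 genes of these 3 zones, and below in 2, 5 and 11, beside shares of 14.8% above and 14.3% below over all tested genes. Within 100 kb the median was 0.01 and beyond it 0.03, and the lowest median of a zone on a single side was −0.08, at places 6 to 20 on the 3′ side. In that zone 4 of 15 genes had a log2 fold change above 0, 0 lay above in both *35S-COLDAIR* libraries and 3 lay below. Over all tested genes the shares were 50.6%, 14.8% and 14.3%, and the zone was picked out by its low median.

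Genes next to each other were also compared. The correlation of the log2 fold changes of tested genes next to each other was −0.06 over 97 pairs and 0.04 without AT5G10605, against 0.03 over 20083 pairs of adjacent tested genes on all 5 chromosomes. These correlations are across genes that share the same 4 libraries. Spearman's correlation with the distance from *FLC* was 0.01 for the size of the log2 fold change and 0.09 for its signed value (97 genes). The size of the difference was larger at lower levels, with a Spearman correlation of −0.35 with mean FPKM over 98 genes. The 55 tested genes on the strand of *FLC* had a median of 0.03, and the 42 on the other strand a median of −0.01.

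The 4 neighbours with an unadjusted p under 0.05 lie at different places in the range. All 4 had an adjusted p of 0.9998 in limma with Benjamini-Hochberg adjustment. *ASN3* (AT5G10240, chr5:3212651-3216551, minus strand), which encodes an asparagine synthetase, had 21.2 and 20.7 FPKM in *35S-COLDAIR* seedlings, against 16.6 and 14.8 FPKM in Col-0 seedlings. AT5G10625 (chr5:3358787-3359817, plus strand), annotated as a flowering-promoting factor-like gene, had 6.41 and 6.96 FPKM in *35S-COLDAIR* seedlings, against 4.65 and 4.82 FPKM in Col-0 seedlings. Both genes were higher in both *35S-COLDAIR* libraries, with log2 fold changes of 0.40 (SE 0.0971, unadjusted limma p 0.0121) and 0.42 (SE 0.109, unadjusted limma p 0.0146). The family of AT5G10625 is named after a gene that speeds flowering when overexpressed.

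The other pair are genes of secreted peptides, and their Col-0 libraries were the higher ones. AT5G10310 (chr5:3241439-3242380, minus strand), a gene of the EPIDERMAL PATTERNING FACTOR family that controls the spacing of stomata and growth, had 6.05 and 5.86 FPKM in *35S-COLDAIR* seedlings, against 10.8 and 8.64 FPKM in Col-0 seedlings. *IDL3* (AT5G09805, chr5:3047011-3047753, plus strand), a relative of the *IDA* peptide gene of organ abscission, had 3.24 and 2.35 FPKM in *35S-COLDAIR* seedlings, against 4.92 and 4.18 FPKM in Col-0 seedlings. The log2 fold changes were −0.62 for AT5G10310 (SE 0.136, unadjusted limma p 0.00815) and −0.56 for *IDL3* (SE 0.173, unadjusted limma p 0.0277). In both genes the sign was the same within each replicate, at −0.74 and −0.49 for AT5G10310 and −0.48 and −0.63 for *IDL3*.

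AT5G10605 and *PROPEP5* had the highest and the lowest log2 fold change on the log2(FPKM + 1) scale, and neither separated the genotypes. AT5G10605 (chr5:3351196-3353392, minus strand), annotated as a methyltransferase gene, had 5.59 and 3.73 FPKM in *35S-COLDAIR* seedlings, against 0.537 and 4.23 FPKM in Col-0 seedlings. The single low library, Col-0 replicate 1, set the log2 fold change of 0.98 (SE 0.623), which was 2.1 within replicate 1 and −0.15 within replicate 2. The gene overlaps part of *CYP81K2* (AT5G10600) on the opposite strand, and the strand setting of the counting is not given in the sources used here. How reads of the shared stretch were assigned was not tested, and *CYP81K2* had a log2 fold change of −0.20 (SE 0.15).

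*PROPEP5* (AT5G09990), precursor of a danger-signal peptide of plant defence, had 8.81 and 2.98 FPKM in *35S-COLDAIR* seedlings, against 12.7 and 6.86 FPKM in Col-0 seedlings. Its log2 fold change was −0.73 (SE 0.520), and it was −0.48 within replicate 1 and −0.98 within replicate 2. Replicate 2 minus replicate 1 was −1.3 in *35S-COLDAIR* seedlings and −0.80 in Col-0 seedlings on the log2 scale, and the genotypes overlapped. The remaining low values were those of AT5G10410, an ENTH/ANTH/VHS-domain gene of vesicle traffic with −0.33 (SE 0.193), and of *CYP78A7* (AT5G09970), a cytochrome P450 gene with −0.30 (SE 0.194). *CYP78A7* had 0.588 and 1.04 FPKM in *35S-COLDAIR* seedlings, against 1.14 and 1.29 FPKM in Col-0 seedlings, so its level was near the filter.

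**Figure D3:**
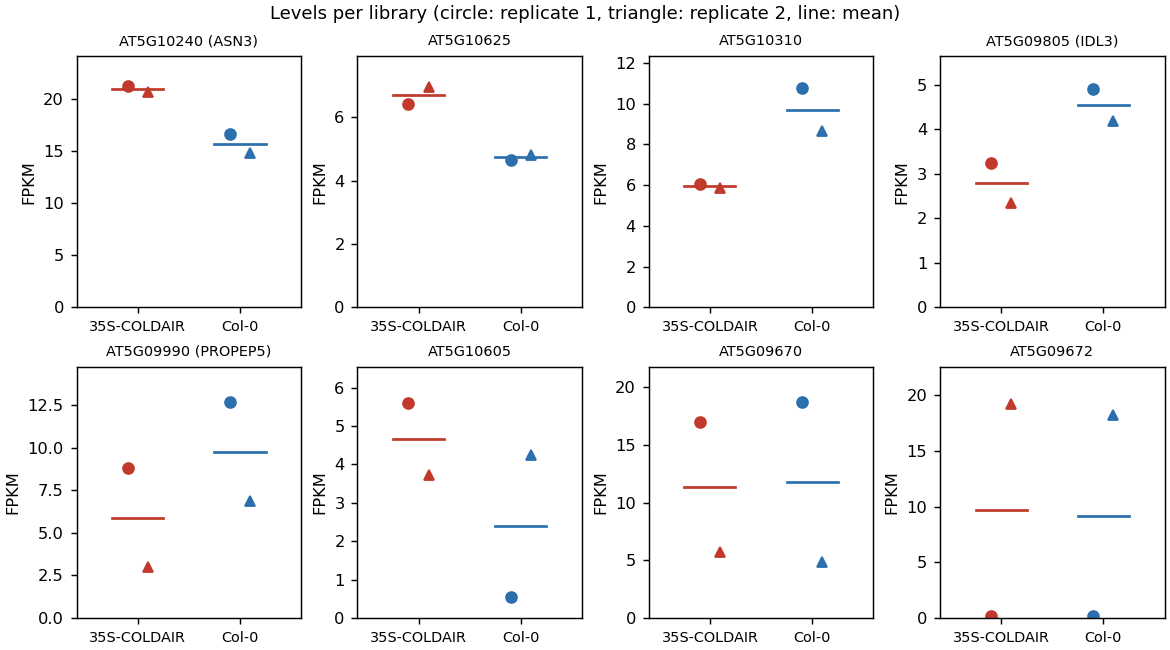
Level in FPKM of 8 neighbours in each library, with circles for replicate 1, triangles for replicate 2 and a line for the mean, *35S-COLDAIR* left in red and Col-0 right in blue, each panel from 0. The genotypes are apart for *ASN3*, AT5G10625, AT5G10310 and *IDL3*, overlap for *PROPEP5* and AT5G10605, and are nearly equal for AT5G09670 and AT5G09672, where replicates 1 and 2 differ instead.

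The 5 lists by role that follow hold chosen genes and not every neighbour of a kind, so their counts and medians depend on that choice. Over all tested genes, 14.8% had both *35S-COLDAIR* libraries above both Col-0 libraries, 14.3% had both below, and the rest overlapped. Tested neighbours of like roles outside the lists include AT5G09850, annotated as a TFIIS elongation factor gene, at −0.19, the RNA-binding protein gene AT5G10350 at −0.16, the transporter gene AT5G10190 at −0.01 and the P450 genes *CYP78A7* and *CYP81K2* at −0.30 and −0.20. Others lay above 0, among them the ABC transporter gene *ABCF2* (AT5G09930) at 0.26, the splicing factor gene AT5G09880 at 0.08 and the magnesium transporter gene *MGT7* (AT5G09690) at 0.05. The list of chromatin, transcription and RNA held 9 genes, all tested, and 0 passed the test. Their median log2 fold change was 0.00, beside 0.02 for all neighbours and 0.00 for all tested genes. *ATXR5* (AT5G09790), which encodes an enzyme that adds a single methyl group to lysine 27 of histone H3, had 6.40 and 6.77 FPKM in *35S-COLDAIR* seedlings, against 4.91 and 5.45 FPKM in Col-0 seedlings. It was the highest of the list, with both *35S-COLDAIR* libraries above both Col-0 libraries and a log2 fold change of 0.30 (SE 0.113, unadjusted limma p 0.0520). *NRPB4* (AT5G09920), a subunit of RNA polymerase II, was the lowest, with 57.9 and 52.0 FPKM in *35S-COLDAIR* seedlings, against 64.6 and 60.2 FPKM in Col-0 seedlings, and a log2 fold change of −0.18 (SE 0.0909). The other 7 lay between −0.03 and 0.04 and overlapped between the genotypes. They were the histone acetyltransferase gene *HAM2* (AT5G09740), the mRNA export gene *THO1* (AT5G09860), AT5G10010, the kinase gene *CDKC;1* (AT5G10270), the bromodomain gene *GTE2* (AT5G10550) and the histone genes AT5G10390 and AT5G10400. The histone genes at AT5G10390 and AT5G10400 have close copies, and how reads matching more than 1 copy were assigned is not given in the sources used here.

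Of 6 listed genes of DNA-binding regulators, 4 were tested and 0 passed. Their median log2 fold change was 0.18, over 4 genes only. *AIL6* (AT5G10510), an AP2-domain gene of meristems and young organs, had 6.94 and 5.45 FPKM in *35S-COLDAIR* seedlings, against 4.78 and 4.81 FPKM in Col-0 seedlings. The bHLH gene AT5G10570 had 2.67 and 2.91 FPKM in *35S-COLDAIR* seedlings, against 2.21 and 2.14 FPKM in Col-0 seedlings. Both *35S-COLDAIR* libraries were above both Col-0 libraries in these genes, as in 14.8% of all tested genes. The log2 fold changes were 0.30 (SE 0.144) for *AIL6* and 0.26 (SE 0.128) for AT5G10570. The value of *AIL6* was 0.46 within replicate 1 and 0.15 within replicate 2, and 0.15 without *35S-COLDAIR* replicate 1. *MYB92* (AT5G10280), a regulator of suberin, and the bZIP gene *TGA4* (AT5G10030) overlapped between the genotypes, at 0.10 and −0.02. *HEC3* (AT5G09750), a bHLH gene of carpel development, was under the filter with 0.331 and 0.195 FPKM in *35S-COLDAIR* seedlings, against 0.119 and 0.111 FPKM in Col-0 seedlings.

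The list of metabolism and transport held 9 genes, all tested. Of these, 0 passed the test, 8 had a log2 fold change above 0, and 5 had both *35S-COLDAIR* libraries above both Col-0 libraries, against 1 below. Over all tested genes, 50.6% were above 0, 14.8% lay above in both libraries and 14.3% below, and the genes of this list were chosen. Their median was 0.19, and 0.30 within replicate 1 and 0.05 within replicate 2. Beside *ASN3*, *SULTR2;1* and *TPPI*, the list holds *SDH3-1* (AT5G09600), a subunit gene of succinate dehydrogenase at the edge of the range, which had 17.2 and 13.5 FPKM in *35S-COLDAIR* seedlings, against 13.0 and 11.6 FPKM in Col-0 seedlings. *HPA1* (AT5G10330), a gene of histidine synthesis, had 12.7 and 11.1 FPKM in *35S-COLDAIR* seedlings, against 9.38 and 11 FPKM in Col-0 seedlings. Both were higher in both *35S-COLDAIR* libraries, at 0.29 (SE 0.146) and 0.21 (SE 0.129), with 0.38 within replicate 1 and 0.20 within replicate 2 for *SDH3-1*, and 0.40 and 0.01 for *HPA1*. Without *35S-COLDAIR* replicate 1 the value of *SDH3-1* was 0.13. The pyrophosphatase gene *PPa6* (AT5G09650) had 221 and 222 FPKM in *35S-COLDAIR* seedlings, against 215 and 215 FPKM in Col-0 seedlings, a log2 fold change of 0.04 (SE 0.0617).

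The list of cell wall and cytoskeleton held 6 genes, all tested and all overlapping between the genotypes. Most tested genes overlapped, with 14.8% above in both libraries and 14.3% below. The median log2 fold change of the list was 0.07, with a range of −0.02 to 0.13. *CESA5* (AT5G09870), a cellulose synthase of the primary wall, was the highest, with 34.2 and 36.4 FPKM in *35S-COLDAIR* seedlings, against 29.8 and 34.7 FPKM in Col-0 seedlings. *ACT7* (AT5G09810), the actin of growing vegetative tissue, had 287 and 278 FPKM in *35S-COLDAIR* seedlings, against 298 and 275 FPKM in Col-0 seedlings, and the lowest value of the list at −0.02 (SE 0.0738). *BXL3* (AT5G09730), *AGP4* (AT5G10430), *KAC1* (AT5G10470) and AT5G10560 lay between.

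The list of defence and signalling held 8 genes, again all tested and all overlapping between the genotypes, with a median of −0.05. Most tested genes overlapped as well, with 14.8% above in both libraries and 14.3% below. The elicitor peptide precursors stand side by side on the chromosome. *PROPEP4* (AT5G09980) had 1.91 and 3.15 FPKM in *35S-COLDAIR* seedlings, against 4.64 and 2.23 FPKM in Col-0 seedlings, with −0.95 within replicate 1 and 0.36 within replicate 2. *PEP7* (AT5G09978) had 2.40 and 3.62 FPKM in *35S-COLDAIR* seedlings, against 3.60 and 3.33 FPKM in Col-0 seedlings. The sign of both genes turned round between the replicates, unlike that of *PROPEP5*. The methyl esterase gene *MES5* (AT5G10300), the ubiquitin ligase gene *RING1*, the D-type cyclin gene *CYCD4;2* (AT5G10440), *GRF6* and the kinase gene *RBK1* (AT5G10520) lay between −0.05 and 0.06.

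The levels of the tested neighbours spanned 0.594 to 747 FPKM, with a median of 11.5 FPKM, against 12.7 FPKM for all tested genes. There were 6 above 100 FPKM and 28 under 5 FPKM. The most abundant was *PMDH2* (AT5G09660), the peroxisomal malate dehydrogenase of photorespiration and fat breakdown, with 786 and 716 FPKM in *35S-COLDAIR* seedlings, against 757 and 730 FPKM in Col-0 seedlings. *EMB3010* (AT5G10360), a gene of ribosomal protein S6, followed with 305 and 306 FPKM in *35S-COLDAIR* seedlings, against 307 and 291 FPKM in Col-0 seedlings. The log2 fold changes of these most abundant genes were 0.01 (SE 0.0779) and 0.03 (SE 0.0664), and the last gene of the range, AT5G10700, had −0.01 (SE 0.0820). Of the 98 tested genes, 39 overlap another annotated gene.

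The widest contrasts among the neighbours were not between the genotypes but between the libraries numbered 1 and 2. AT5G09672, which was not found in the TAIR10.1 annotation, had 0.148 and 19.2 FPKM in *35S-COLDAIR* seedlings, against 0.131 and 18.2 FPKM in Col-0 seedlings. AT5G09670, the neighbouring locus number and annotated as a loricrin-like gene, had 17.0 and 5.74 FPKM in *35S-COLDAIR* seedlings, against 18.8 and 4.89 FPKM in Col-0 seedlings. These genes ran in opposite directions between replicates and alike in both genotypes, so their log2 fold changes between genotypes were 0.05 (SE 1.94) and 0.03 (SE 0.756). The sum of both was 17.1 and 24.9 FPKM in *35S-COLDAIR* seedlings, against 18.9 and 23.1 FPKM in Col-0 seedlings. They were singled out after their values had been seen.

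Counted over the range, 3 of 98 neighbours (3.06%) differed by more than 0.5 on the log2 scale between replicates 1 and 2 in both genotypes, against 3.52% of all tested genes. *PROPEP5* was the third of these. The replicate libraries were deposited as a table for each number, and whether the tables were normalized together is not given in the sources used here.

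**Figure D4:**
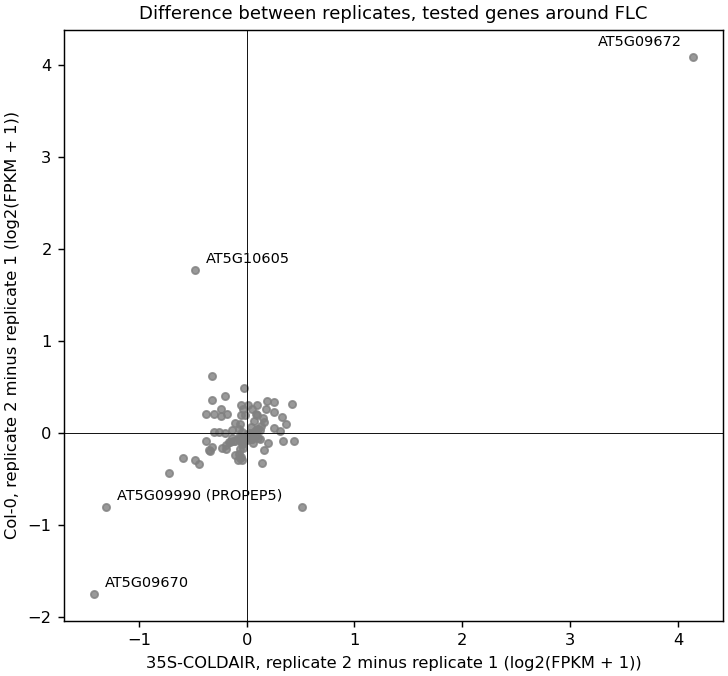
Difference of replicate 2 minus replicate 1 on the log2(FPKM + 1) scale, in *35S-COLDAIR* seedlings (horizontal axis) and in Col-0 seedlings (vertical axis), each point being a tested neighbour. Most of the 98 points lie near 0 on both axes, while AT5G09672 stands at 4.14 and 4.09, AT5G09670 at −1.41 and −1.75, and AT5G10605 at −0.48 and 1.77.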

How the data were processed

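Poly-A RNA-seq of 2 *35S-COLDAIR* and 2 Col-0 libraries was analysed. The values deposited by the authors are FPKM per gene and library, in 2 tables of 33854 genes. Each table holds a library of each genotype with the same replicate number. The number in the table name is the other one, and columns were assigned by their own names. The paper names TopHat and cuffdiff with the TAIR10 genome, whereas the submitters' processing notes name STAR 2.5.2b and Cuffdiff. The annotation, the normalization mode and the strand setting are not given in the sources used here, and neither are fragment counts, so no interval for counting error was computed.

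Levels as log2(FPKM + 1) were compared two-sided in R 4.3.3 with limma 3.58.1, by lmFit and a trended eBayes, over the 20142 genes that averaged 0.5 FPKM or more. P-values were adjusted over all of them by the Benjamini-Hochberg method with a threshold of 0.05. A fold change on this scale understates the change of low genes. The script was tested on simulated data. Positions, products and upstream sequences of 250 bases came from RefSeq TAIR10.1, and distances were taken to the nearer end of a gene.

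The neighbours and the 5 role lists were chosen with earlier results of these data known. Genes named in the text are the 5 nearest tested genes on each side, the 5 largest and 5 smallest log2 fold changes, the 5 highest means, the ends of the range and the role lists. *MEF7*, AT5G09960, *CYP81K2*, AT5G09850, AT5G10350, *ABCF2*, AT5G09880, *MGT7*, AT5G09670 and AT5G09672 fall outside that rule, as do AT5G10660, AT5G10670.1 and *TPR13* under the filter. Alternatives were a pseudocount of 0.1 FPKM, no filter or a filter at 1 FPKM, median centring, quantile normalization, eBayes without its trend, the replicate block, each library left out, and neighbourhoods of 10 places or 25 kb. Leaving out AT5G09670, AT5G09672 and AT5G10605 was added after seeing the data.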

Additional observations from a re-analysis of the deposited data

How the results depend on the processing

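No neighbour passed the threshold in limma under any alternative that kept all 4 libraries. Those fits passed only 2 to 7 genes in all. The median log2 fold change of the tested neighbours was 0.0182 and became 0.0203 with a pseudocount of 0.1 FPKM, 0.0125 without a filter, 0.0123 with quantile normalization and 0.0125 without AT5G09670, AT5G09672 and AT5G10605. Leaving out each library in turn gave −0.0006 to 0.0487, the lowest without *35S-COLDAIR* replicate 1 and the highest without *35S-COLDAIR* replicate 2. The number of neighbours whose genotypes did not overlap was 36 of 98, with 18.4% above and 18.4% below, against 14.8% and 14.3% of all tested genes. It was 63 to 69 when a library was left out, where fewer libraries make overlap rarer by construction. The share over all tested genes with a library left out is not given here, so those counts describe the neighbours only. The median of the 10 nearest genes was 0.0373, and 0.0118 to 0.129 with a library left out, 0.0022 within 10 places of *FLC* and 0.0373 within 25 kb. Of 549 values of the 50 named tested neighbours under these alternatives, 46 changed sign, in 28 genes, 0 of them in a gene whose log2 fold change with all libraries exceeded its SE. In 4 the value of the other sign exceeded its own SE. Without *35S-COLDAIR* replicate 1 these were AT5G10400 at −0.21, AT5G10390 at −0.17 and AT5G10190 at 0.14, and without Col-0 replicate 1 *GTE2* (AT5G10550) at −0.12.

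With the replicate block, 0 of 98 neighbours passed the threshold, beside 7 of 20142 genes in all, and the median stayed at 0.0182. The smallest adjusted p of a neighbour in limma was 0.456, shared by *PROPEP5*, *ASN3* and AT5G10310. An unadjusted p under 0.05 was reached by 11 neighbours (11.2%) against 7.98% of all tested genes, and by 4 without the block. *FLC* itself passed with the block, at an adjusted limma p of 0.0035, against 0.0835 without it. The labels do not say that a replicate number marks a shared culture. Deviations from the genotype mean correlated between libraries of a number at 0.76 over the 98 neighbours, at 0.12 without AT5G09670 and AT5G09672, and at 0.37 over all tested genes. The tables give no fragment counts, which limits what can be said of genes near the filter.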

Other observations

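Among the neighbours under the filter, AT5G10660 had 0.186 and 0.136 FPKM in *35S-COLDAIR* seedlings, against 0.356 and 0.345 FPKM in Col-0 seedlings. The entry AT5G10670.1, which was not found in the TAIR10.1 annotation, had 0.348 and 0.410 FPKM in *35S-COLDAIR* seedlings, against 0 and 0.116 FPKM in Col-0 seedlings. *TPR13* (AT5G10090) had 0.0546 and 0.0250 FPKM in *35S-COLDAIR* seedlings and was listed at 0 in both Col-0 libraries. These values were picked out after they had been seen, and none was tested.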
